A study of Mus musculus with 145 samples.

Results

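Of 94 untreated mouse mammary tumours, 24 carried a transposon insertion in Kmt2c by the rule given next (25.5%, exact 95% binomial interval 17.1% to 35.6%). These Kmt2c-hit tumours were set against the 70 untreated tumours that did not meet the rule. A tumour counted as Kmt2c-hit when a site of at least 10 reads in its own library lay inside the gene region that the authors' deposited table gives for Kmt2c. Each position and strand was kept only in the library with most reads there, and the same rule gave the hits in every other gene. The tumours were thus chosen by their reads at Kmt2c, which are given as a description with no test. Mice of both groups carried ATP1, LSL-PIK3CA(H1047R), LSL-PB and WAP-Cre and had no drug treatment, and the labels gave no age. Cre under the WAP promoter, which becomes active in mammary epithelium late in pregnancy, switched on the mutant PIK3CA gene and the piggyBac (PB) transposase together, and ATP1 was the transposon that the enzyme mobilised. The 51 resistant tumours of the series had the same genotype and had grown under daily BYL719, an inhibitor of the PI3K catalytic subunit that PIK3CA encodes, at 30 mg/kg, given once tumours had reached 250 mm3. Genomic DNA of each tumour was sequenced from the transposon's 5′ arm outwards, and the reads at each insertion site were counted. The untreated tumours came from 23 mice, so many tumours shared an animal, and each library was counted as 1 tumour. Untreated libraries 58 and 88 name the same mouse and gland in their titles, that of 88 with the suffix R2, so that 1 tumour may be counted 2 times among those not hit. They kept 1 and 0 sites, and without library 88 the count of genes past the adjustment below was the same, 0.

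Kmt2c encodes a large histone methyltransferase, also known as MLL3, that places single methyl groups on lysine 4 of histone H3, mainly at enhancers. It works in a complex with the histone demethylase Kdm6a (UTX) and shares that complex type with its paralog Kmt2d, and KMT2C is recurrently mutated in human breast cancer. A piggyBac transposon inserts at the tetranucleotide TTAA. Depending on where and in which direction it lands, it can disrupt a gene or drive it, so tumours selected during growth may share disrupted or activated genes.

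The sequences at the 6 most-read Kmt2c sites show the target motif of the enzyme, in capitals, with the flanking bases as the deposited table writes them (mm10).

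Untreated tumour 15, chromosome 5, position 25365458, minus strand: TTAAaatt

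Untreated tumour 94, chromosome 5, position 25490283, minus strand: TTAAatta

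Untreated tumour 36, chromosome 5, position 25444291, plus strand: TTAAagtg

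Untreated tumour 47, chromosome 5, position 25294826, minus strand: TTAAgtct

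Untreated tumour 21, chromosome 5, position 25387080, minus strand: TTAAactg

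Untreated tumour 8, chromosome 5, position 25272290, plus strand: TTAAagaa

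The Kmt2c region spanned chromosome 5 from 25271794 to 25500783 (228.99 kb, mm10), and the gene lies on the minus strand, with its RefSeq start site at 25498783. The 24 tumours held 35 kept sites there, and all 35 were TTAA sites. The strand listed for the site was that of the gene at 22 sites and the other at 13. Whether the listed strand is the transposon's own direction was not checked here. Tumours with 1 site numbered 17, those with 2 sites numbered 4, and 3 tumours had more, up to 4 sites in untreated tumour 21. Within 113 kb of the start site lay 23 sites and beyond that 12, and 6 sites lay within 10 kb of the start site, the nearest at 2.215 kb. Sites were not assigned to exons or introns here.

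**Figure D1:**
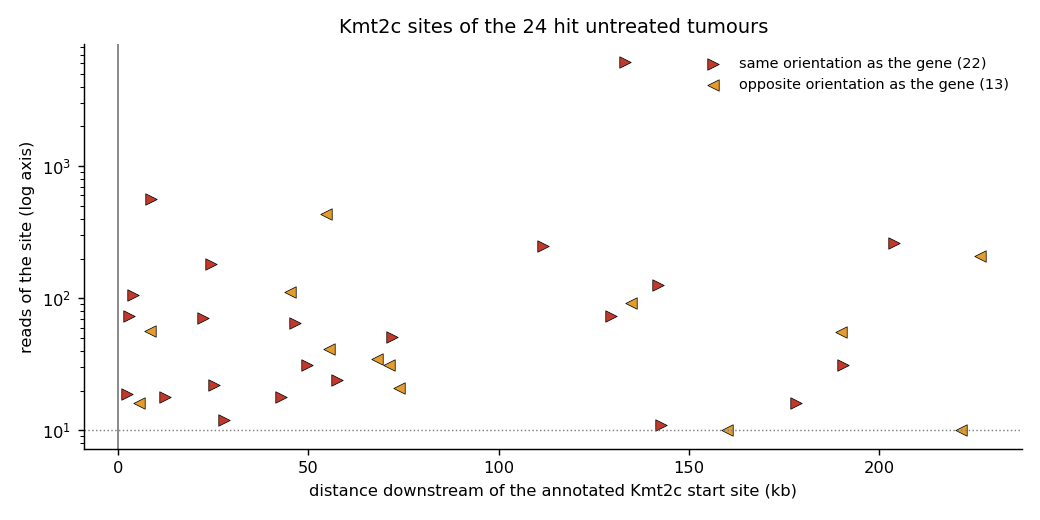
Reads of the 35 Kmt2c sites of the 24 hit untreated tumours (log axis) by distance downstream of the annotated start site, in kb. Each triangle is 1 site, its direction and colour give the site's listed strand relative to the gene, and the dotted line marks the 10-read minimum. Most sites have under 100 reads, and the site of untreated tumour 15 stands above the others at 6102 reads.

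Reads at these sites ran from 10 through a median of 51 to 6102. Untreated tumour 15 had the 6102 reads at 1 site, its 4th most-read site of 737 and 2.73% of the reads at its sites. Untreated tumour 94 had 561 reads at its 3rd most-read site of 369 (2.62%), and untreated tumour 36 had 431 reads at its 19th of 932 (0.425%). In the remaining 21 tumours Kmt2c was further down the list: it was among the top 100 sites in 6 tumours in all and among the top 20 in these 3. The share of a tumour's site reads at its best Kmt2c site was 0.00796% at the lowest, 0.0886% at the median and 2.73% at the highest. A low share cannot be told apart from an insertion in few cells of the tumour, or in cells other than its main clone. The sites nearest the threshold from inside were 4 sites of 10 to 12 reads. Among tumours outside it, the best kept Kmt2c site had 9 reads in untreated tumour 18 and 8 in untreated tumour 43, and 5 further tumours had 1 to 4 reads. A further 3 tumours lost their site of 10 or more reads to a library with more reads at that position. The authors' deposited table counts 46 untreated tumours with a Kmt2c insertion (48.94%), and 47 had at least 1 read in the region. The tumours called not hit here thus include some with a Kmt2c insertion by the authors' count.

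Mapped insertions were more numerous in Kmt2c-hit tumours, a description since the rule favours tumours with many sites. The number of kept sites of at least 10 reads outside Kmt2c was 214 at the lowest, 861 at the median and 3014 at the highest in the 24 Kmt2c-hit tumours, against 0, 356.5 and 2660 in the 70 tumours that were not hit. Total reads ran from 10232 through 116214 to 938987 in Kmt2c-hit tumours and from 2950 through 30668.5 to 538571 in the others. The number of genes with a site was 103, 371.5 and 1241 in Kmt2c-hit tumours and 0, 161.5 and 1077 in the others. The ranges overlap, but 8 tumours kept under 20 sites, and none of these was Kmt2c-hit. In 5 bins of tumours ordered by number of sites, Kmt2c-hit tumours made up 0 of 19, 3 of 19, 4 of 19, 7 of 19 and 10 of 18, or 0%, 15.8%, 21.1%, 36.8% and 55.6%. A tumour with more sites meets the rule for any gene more easily, so the number of sites entered the main tests below, and shares of tumours and Fisher's exact tests are given without it. The part of read depth, tumour size or number of clones in the number of sites was not tested.

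**Figure D2:**
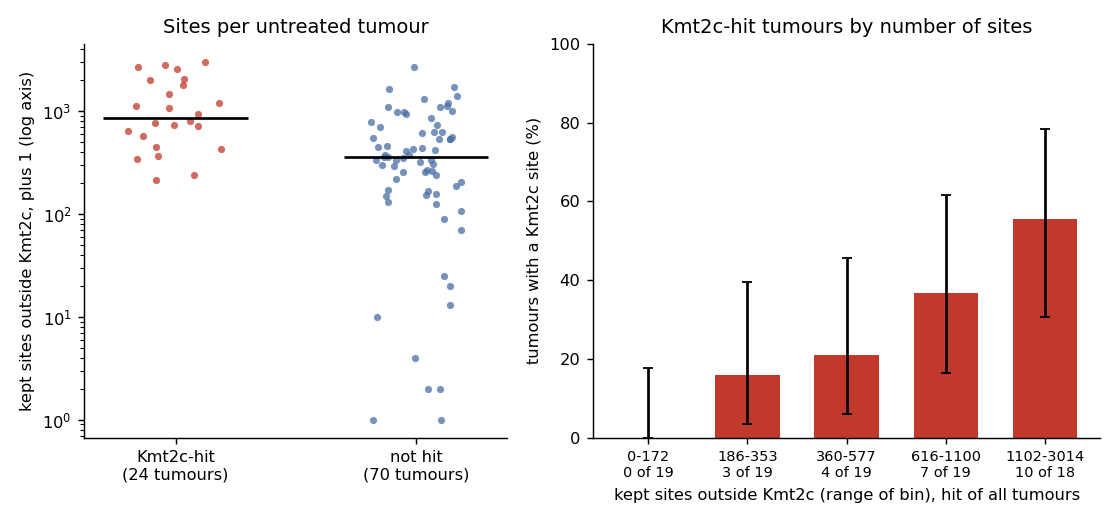
Left, kept sites outside Kmt2c plus 1 (log axis) for each untreated tumour, Kmt2c-hit and not hit, with the median as a line. Right, percent of tumours that were Kmt2c-hit in 5 bins of the number of sites, with exact 95% binomial intervals and the hit and total tumours under each bar. The share goes from 0% in the bin with fewest sites to 55.6% in the bin with most.

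Hits were spread over mice: 17 of 23 mice had a Kmt2c-hit tumour, of which 12 had 1, 3 had 2 and 2 had 3. Titles of the form TgTum covered 61 tumours, of which 19 were hit (31.1%), and titles of the form tgTum covered 33, of which 5 were hit (15.2%). TgTum tumours also had more kept sites, a median of 729 against 258. Posterior glands gave 11 hit tumours of 40 (27.5%) and anterior glands 13 of 54 (24.1%), a difference far inside their binomial intervals. Untreated tumours 77 and 79, neither of them hit, shared 586 of the 588 sites of 1 library (99.7%), so that tumour 79 kept 3 sites. Among libraries with at least 100 sites the next most similar untreated pair shared 5.15%, so that no Kmt2c-hit tumour shared more with another.

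No gene passed the test for being hit more or less often in Kmt2c-hit tumours than in the others once the number of sites was taken into account. Of 13391 gene regions, 9118 had a site in at least 1 untreated tumour, and the 1469 hit in at least 5 untreated tumours were tested. Each was tested by penalised (Firth) logistic regression of its hits on Kmt2c status and the log10 number of sites, with a two-sided likelihood ratio test and Benjamini-Hochberg adjustment over all genes tested. At adjusted p under 0.05, 0 genes were called (0%), and the smallest adjusted p was 0.594. At unadjusted p under 0.05 there were 82 genes (5.58%), of which 47 (3.2%) had an odds ratio above 1, meaning more frequent hits in Kmt2c-hit tumours, and 35 (2.38%) one below 1. The odds ratio was above 1 in 782 genes (53.2%), with a median log2 odds ratio of 0.11. For single genes the standard error was large, 1.26 at the median on the log2 scale, so that moderate differences were not detectable with these tumours.

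The same genes looked different before the number of sites was taken into account. Two-sided Fisher's exact tests of the hit and unhit tumours called 43 genes (2.93%) at adjusted p under 0.05, and all 43 were hit more often in Kmt2c-hit tumours. Unadjusted p was under 0.05 in 349 genes (23.8%), again all of them higher in Kmt2c-hit tumours. The odds ratio lay above 1 in 1287 of the 1469 genes (87.6%), at a median log2 odds ratio of 1.27. With the number of sites in the model all 43 kept an odds ratio above 1, with a median of 5.29, and 30 of them had an unadjusted p under 0.05, but none passed the adjustment. Those 43 genes were picked for a high ratio in these same tumours, so that their direction is not independent of the choice.

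**Figure D3:**
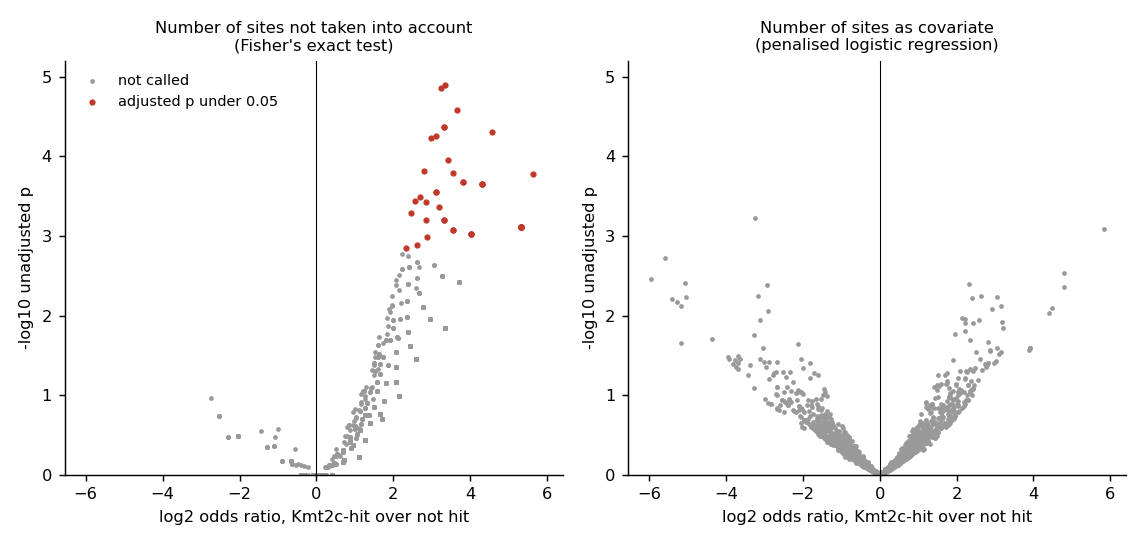
Log2 odds ratio of being hit, Kmt2c-hit over not hit tumours (0.5 added to each cell in the left panel), against −log10 unadjusted p for the 1469 genes tested. Left, Fisher's exact test without the number of sites, where 43 genes in red pass the adjustment and 87.6% of ratios are above 1 on the linear scale. Right, penalised logistic regression with the number of sites, where the ratios lie on both sides of 0 and 0 genes pass.

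The 10 genes with the smallest p and an odds ratio above 1 are given as a description, since none passed the adjustment. Ncoa7, a nuclear receptor coactivator on chromosome 10 (30629010 to 30805107), had a site in 15 of 24 Kmt2c-hit tumours (62.5%), against 10 of 70 others (14.3%). The odds ratio with the number of sites was 5.01 (95% profile interval 1.67 to 15.6, p = 0.00402, adjusted p = 0.600). Its most-read site had 11, 61 and 573 reads (lowest, median and highest) in the Kmt2c-hit tumours and 16, 54 and 463 in the others, so the reads overlapped. In the bin of tumours with most sites Ncoa7 was hit in 9 of 10 Kmt2c-hit tumours and in 4 of 8 others.

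Rap1a, a small GTPase of the Ras family (chromosome 3, 105727260 to 105803381), had a site in 5 of 24 Kmt2c-hit tumours, from 5 mice, and in 0 of 70 others, a share that an exact interval limits to 5.13%. Its reads were low, at 10 to 44 for the best site of a tumour. Tbc1d1, a Rab GTPase-activating protein phosphorylated by AKT, had a site in 6 Kmt2c-hit tumours and 0 others, with 14 to 349 reads. Tbc1d1 lies on chromosome 5 (64157451 to 64351486), as Kmt2c does, but outside the 1 Mb around it. Cpne8, a copine that binds phospholipids in the presence of calcium, was hit in 5 Kmt2c-hit tumours and 0 others. A transcript without a RefSeq symbol, uc008gyt.1 on chromosome 19, also had 5 and 0. With 0 tumours on one side a fitted ratio depends on the penalty, and none is given for these 4 genes. They reached the 5 tumours needed for testing through Kmt2c-hit tumours alone, so their split is not independent of that filter. Of 1469 genes tested, 9 had no site in the tumours that were not hit.

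Cdh12, a type II cadherin, was hit in 10 Kmt2c-hit tumours against 4 others (odds ratio 6.18, interval 1.69 to 25.5). The Cdh12 site with most reads, 10114, was in untreated tumour 62, which was not Kmt2c-hit and kept 19 sites. Pias1, an E3 SUMO ligase, was hit in 8 against 2 tumours (8.26, 1.81 to 50.6). Khdrbs2, an RNA-binding protein that regulates splicing, likewise had 8 against 2 (7.60, 1.67 to 46.2). Tenm2, a teneurin adhesion protein, was hit in 12 against 6 tumours (5.29, 1.62 to 18.4). Cdk6, a cyclin-dependent kinase that drives entry into S phase, was hit in 6 against 2 (8.92, 1.77 to 63.5). The intervals of these 5 genes all exclude 1 but are wide, and with 1469 genes tested intervals that exclude 1 occur in 5.58% of genes. Cdh12, Pias1, Khdrbs2 and Cdk6 had under 5 hit tumours among the others. They reached the 5 tumours needed for testing only with Kmt2c-hit tumours, so their split is not independent of that filter.

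Among the genes with an odds ratio below 1, the smallest p of all 1469 was that of Sash1, a scaffold protein described as a tumour suppressor candidate in breast (chromosome 10, 8722219 to 8888070). It had a site in 7 of 24 Kmt2c-hit tumours (29.2%), against 27 of 70 others (38.6%), which are near each other (Fisher's exact p = 0.468). With the number of sites in the model its odds ratio was 0.106 (0.0216 to 0.406, p = 0.000602, adjusted p = 0.594). Chromosome 10 held a smaller share of sites in Kmt2c-hit tumours, at a median of 22.4% against 25.8%. The part of that share in the ratio of Sash1 was not tested. Counts by bin were uneven. In the bin of 616 to 1100 sites Sash1 was hit in 0 of 7 Kmt2c-hit tumours and 9 of 12 others. In the bin with most sites it was hit in 6 of 10 Kmt2c-hit tumours and 6 of 8 others. Reads at the best Sash1 site overlapped, at 24, 67 and 430 in Kmt2c-hit tumours and 10, 52 and 1648 in the others.

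Gmds, an enzyme of GDP-fucose synthesis, was hit in 3 Kmt2c-hit tumours and 17 others (odds ratio 0.132, interval 0.0234 to 0.551). Nfib, a nuclear factor I transcription factor, was hit in 2 and 13 tumours (0.112, 0.0151 to 0.557). Its sites in Kmt2c-hit tumours had 12 and 21 reads, against 10 to 657 in the others. Dyrk1a, a dual-specificity kinase, was hit in 1 Kmt2c-hit tumour and 5 others. No Kmt2c-hit tumour had a site in Dennd1a (7 others), the long non-coding RNA gene 2310001H17Rik (7), Nmbr (6), Agfg1 (5), Hdac8 (5) or Rtkn2 (5). A count of 0 of 24 allows a share of up to 14.2% by the exact interval, and the 7 others are 10% of 70, so that an absence in Kmt2c-hit tumours is not shown. These 6 genes reached the 5 tumours needed for testing through the others alone. Gmds, Nfib and Dyrk1a had under 5 Kmt2c-hit tumours, so that their split is not independent of that filter either. Of 1469 genes tested, 23 had no site in Kmt2c-hit tumours. Hdac8 is the deacetylase that recycles cohesin, and Nmbr is the receptor of neuromedin B.

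**Figure D4:**
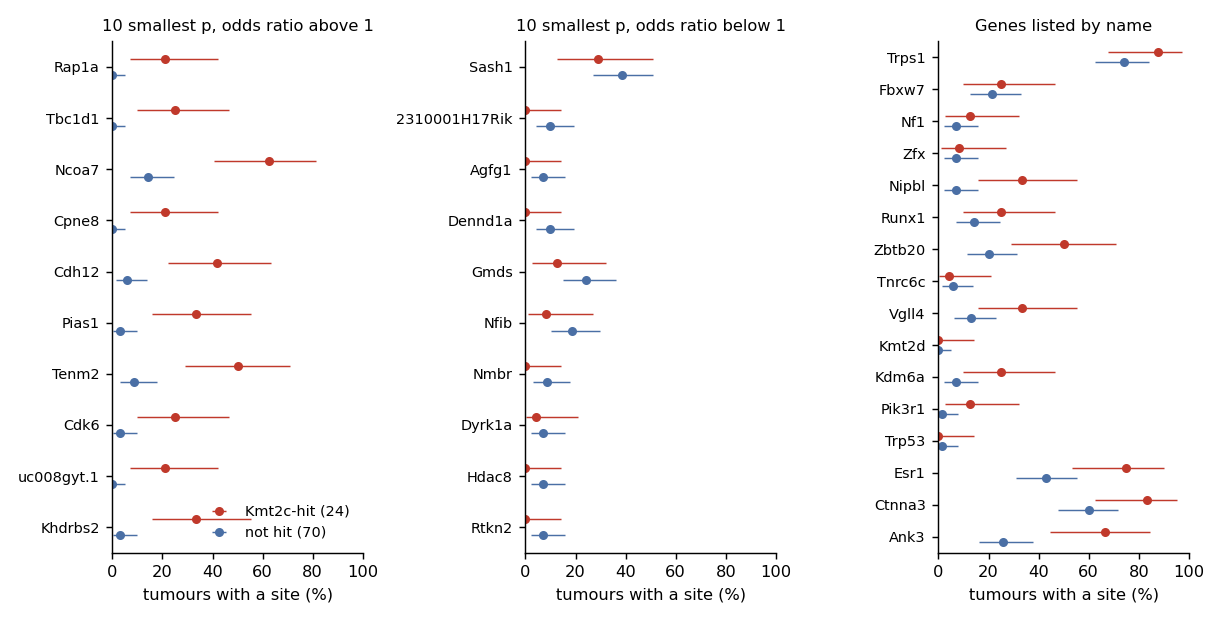
Percent of tumours with a site in each gene, Kmt2c-hit (24, red) above not hit (70, blue), with exact 95% binomial intervals that take no account of the number of sites. The panels hold the 10 genes of smallest p with an odds ratio above 1, the 10 with one below 1, and genes often hit in the screen or known in breast cancer, of which Trps1 is highest at 87.5% and 74.3%.

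Most genes often hit in this screen, or known as breast cancer genes, were hit in both groups. Trps1, a GATA-type repressor of the mammary lineage and the most frequent of these, had a site in 21 of 24 Kmt2c-hit tumours (87.5%) and 52 of 70 others (74.3%). With the number of sites its odds ratio was 0.539 (0.125 to 2.58). It had 106 sites in Kmt2c-hit tumours and 175 in the others. In both of the bins with most sites Trps1 was hit in every Kmt2c-hit tumour, 7 of 7 and 10 of 10, and in 10 of 12 and 8 of 8 others. Esr1, the oestrogen receptor, had 18 and 30 tumours (1.66, 0.549 to 5.28). It lies on chromosome 10, which held a median of 22.4% of kept sites in Kmt2c-hit tumours and 25.8% in the others. The part of that share in the count of Esr1 was not tested. Runx1, a transcription factor of the luminal lineage, had 6 and 10 (0.917, 0.243 to 3.15). Zbtb20, a zinc-finger repressor, had 12 and 14 (1.34, 0.402 to 4.24), and Zfx, an X-linked zinc-finger activator, had 2 and 5 (0.441, 0.0574 to 2.51).

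Fbxw7, the ubiquitin ligase subunit that marks NOTCH1, MYC and cyclin E for degradation, was hit in 6 Kmt2c-hit tumours and 15 others (odds ratio 0.525, interval 0.142 to 1.71). Vgll4, which competes with YAP for TEAD factors, was hit in 8 and 9 (1.70, 0.499 to 5.59). Nf1, which turns off RAS, was hit in 3 and 5 (1.35, 0.255 to 6.38), and Nipbl, the cohesin loader, in 8 and 5 (2.12, 0.516 to 8.57). Tnrc6c, an effector of microRNA silencing, was hit in 1 and 4. The long genes Ctnna3 and Ank3 on chromosome 10 had 20 and 42 tumours (0.724, 0.184 to 2.99) and 16 and 18 tumours (2.05, 0.630 to 6.74). Every one of these intervals includes 1.

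Within the pathway the transposon mice were built on, Inpp4b, a phosphatase of the PI3K product PI(3,4)P2, was hit in 6 Kmt2c-hit tumours and 16 others (odds ratio 0.241, interval 0.0515 to 0.912). Pik3r1, the regulatory subunit of PI3K, was hit in 3 and 1, and Trp53, the tumour suppressor p53, in 0 and 1, too few tumours to be tested. Of 17 brakes of the PI3K-AKT-mTOR pathway, 14 had a gene region, 11 were hit in any untreated tumour and 3 were tested. None of the 3 passed the adjustment, and their median log2 odds ratio was −0.40, beside 0.11 over all genes tested. Sgk1, a kinase activated downstream of PI3K and encoded on chromosome 10, was hit in 8 and 14 tumours (0.655, 0.179 to 2.14). Neither of the 2 activators tested passed.

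Of the 17 genes listed for the KMT2 complexes, 10 had a gene region and could be counted. Apart from Kmt2c, 5 were hit in any untreated tumour. Kdm6a, the demethylase of the Kmt2c complex, was hit in 6 Kmt2c-hit tumours and 5 others (25% and 7.14%, odds ratio 2.33, interval 0.573 to 9.58). Kmt2a, a methyltransferase of another KMT2 complex, was hit in 3 and 2 (2.29, 0.330 to 17.5). Ash2l, a core subunit, was hit in 1 and 0, Ncoa6 in 1 and 3 and Psip1 in 0 and 1. Kmt2d had no site in either group. At least 1 of these genes was hit in 10 of 24 Kmt2c-hit tumours (41.7%), against 10 of 70 others (14.3%). That share takes no account of the number of sites, and neither of the 2 members tested passed.

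The other gene lists gave 0 genes past the adjustment each, and their shares of tumours hit were higher in Kmt2c-hit tumours without the number of sites. Of 15 tested chromatin regulators outside the KMT2 complexes, 8 had an odds ratio above 1 and 7 below, with a median log2 odds ratio of 0.08. Hdac9, a class IIa deacetylase, was hit in 5 Kmt2c-hit tumours and 14 others (0.249, 0.0511 to 0.972). Of 3 Polycomb genes tested, Ezh2, its methyltransferase, was hit in 3 and 2 tumours and Jarid2 in 2 and 7. In the cohesin list Stag1, a core subunit, was hit in 9 and 7 tumours (1.67, 0.426 to 6.22), and at least 1 cohesin gene was hit in 13 of 24 (54.2%) and 15 of 70 (21.4%).

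Among 12 receptor tyrosine kinases tested, 6 had ratios above 1 and 6 below. Igf1r, the receptor of insulin-like growth factor 1, was hit in 7 Kmt2c-hit tumours and 1 other (odds ratio 6.70, interval 1.08 to 71.7). Of 14 genes of NOTCH, WNT and Hippo signalling, 9 had ratios above 1, and Maml3, a NOTCH coactivator, was hit in 5 and 4 tumours (4.11, 0.937 to 20.1). All 5 tested genes of TGF-beta, BMP and SMAD signalling had ratios below 1, beside 687 of all 1469 genes tested. The median log2 odds ratio of the 5 was −0.42. The intervals of Bmpr1a (0.365, 0.0285 to 2.75), Acvr1 (0.640, 0.0923 to 3.62) and Tgfbr2 (0.745, 0.0660 to 4.99) include 1. Bmpr2 and Acvr2a had ratios of 0.811 and 0.957. The 15 adhesion and polarity genes tested split into 9 above and 6 below 1. Ctnna1, the alpha-catenin that links cadherins to actin, was hit in 7 and 2 tumours (5.68, 1.19 to 35.1). The phosphatase Ptprd was hit in 9 and 23 (0.309, 0.0816 to 1.01). Igf1r, Maml3 and Ctnna1 reached the 5 tumours needed for testing only with Kmt2c-hit tumours, so their split is not independent of that filter.

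All 24 long neural adhesion genes, which offer a transposon a large target, were hit in at least 5 tumours, and 13 had ratios above 1. Their median log2 odds ratio of 0.07 lay beside 0.11 over all genes. Csmd1, a large membrane protein that inhibits complement, was hit in 14 Kmt2c-hit tumours and 10 others (3.89, 1.28 to 12.1), and Lsamp in 9 and 25 (0.330, 0.0936 to 1.03). Of 12 listed markers of other cells of the gland, 7 had a gene region, for stromal, endothelial, blood and myoepithelial cells. In these, 3 of 24 Kmt2c-hit tumours (12.5%) and 6 of 70 others (8.57%) had any hit. Of 15 genes within 1 Mb of Kmt2c, 8 were hit in any untreated tumour, among them Galnt11 and Prkag2 with 2 and 2 tumours each, and none reached 5 tumours.

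By the test described here Kmt2c-hit tumours had a smaller share of their sites on chromosome 10, a call that several alternatives did not keep. The share was 12.5%, 22.4% and 28.1% (lowest, median and highest) in the 24 Kmt2c-hit tumours, against 0%, 25.8% and 36.8% in the 68 other tumours with a kept site. The values of the groups overlapped widely. Adjusted for the number of sites, the difference was −3.65 percentage points (two-sided permutation within the 5 bins, p = 0.00433, adjusted over 4 measures p = 0.0173). The difference comes from a straight-line fit over all tumours, while labels were permuted only within bins. The p-value thus compares tumours within bins and does not apply to the size of that difference. The fit includes untreated tumours 14, 24, 41 and 58, which kept 9, 1, 12 and 1 sites, none of them on chromosome 10. Kmt2c lies on chromosome 5, so at an equal number of sites the rule can favour tumours with a smaller chromosome 10 share. The part of the rule in the difference was not tested. With the number of sites outside chromosome 10 in the model the difference was −3.44 points (p = 0.0069, adjusted p = 0.0276), an alternative added after the values were seen. The call was not kept with sites of at least 100 reads (−2.82 points, adjusted p = 0.266), with the 300 or the 100 most-read sites of each tumour (−2.50 and −2.42 points, adjusted p = 0.804 and 0.867) or without the number of sites (−2.08 points, adjusted p = 0.344). Nor was it kept in TgTum tumours alone (−4.54 points, adjusted p = 0.111) or tgTum tumours alone (−0.30 points, adjusted p = 0.834). Leaving out 1 mouse ended the call for 6 of 23 mice, numbered here in the order of their first tumour. The adjusted p was 0.0502 without mouse 3, 0.0615 without mouse 8, 0.145 without mouse 17, 0.0524 without mouse 18, 0.108 without mouse 19 and 0.114 without mouse 20. These fits, and the one with sites outside chromosome 10, were run for this share alone. Their p-values were adjusted beside those of the other measures from the main test over all tumours. Mice 8, 17, 19 and 20 had no Kmt2c-hit tumour. Over all 23 such fits the difference stayed between −3.94 and −3.27 points. Without the tumours that kept under 20 sites the difference was −2.02 points (adjusted p = 0.0313).

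**Figure D5:**
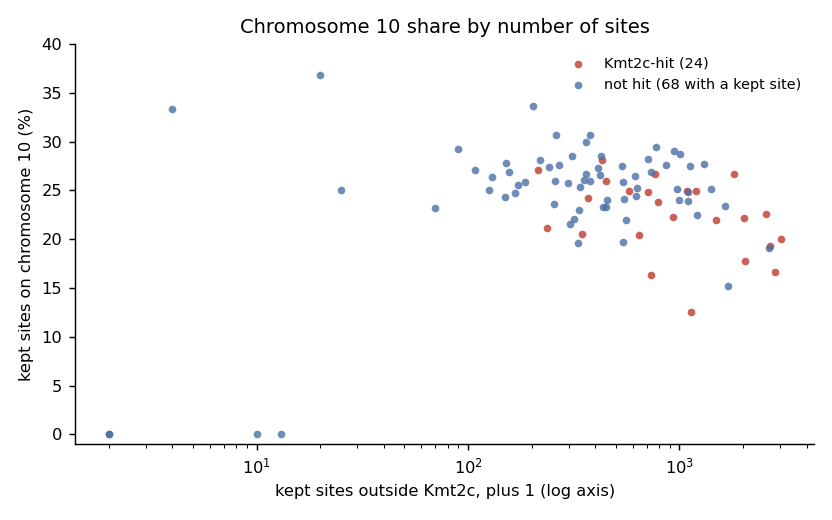
Percent of kept sites on chromosome 10 against the number of kept sites outside Kmt2c plus 1 (log axis), 1 point for each untreated tumour with a kept site, Kmt2c-hit in red and not hit in blue. The Kmt2c-hit tumours lie at 12.5% to 28.1%, and the widest scatter, 0% to 36.8%, is in tumours with few sites.

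The other 3 measures of the tumours did not pass. The share of sites inside gene regions was 44.8%, 49.2% and 53.2% in Kmt2c-hit tumours and 0%, 47.4% and 52.6% in the others, with an adjusted difference of −1.16 points (permutation, adjusted p = 0.911). The most-read site took 0.906%, 2.87% and 57.5% of site reads in Kmt2c-hit tumours and 0.502%, 2.90% and 100% in the others (adjusted difference 8.36 points, adjusted p = 0.108). That difference comes from the same kind of fit, which includes untreated tumours 24 and 58 at 100% with 1 kept site each. Without the number of sites it was −1.69 points. The share of sites at TTAA was 93.6%, 96.5% and 98.6% in Kmt2c-hit tumours and 33.3%, 95.8% and 100% in the others (0.22 points, adjusted p = 0.636). The values of the groups overlapped in each.

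In resistant tumours the same comparison also called no gene. Of 51 resistant tumours, 24 were Kmt2c-hit (47.1%), with 86 sites. They had 328, 952.5 and 3309 kept sites, against 0, 275 and 797 in the 27 that were not hit, so that the ranges overlap from 328 to 797 sites. By the same penalised regression, 0 of 761 genes passed the adjustment (0%), the smallest adjusted p was 0.828, and 32 had an unadjusted p under 0.05 (4.2%). The difference of the Kmt2c odds ratio between resistant and untreated tumours was tested in 620 genes, of which 0 passed (0%) and 34 had an unadjusted p under 0.05 (5.48%), the smallest adjusted p being 0.772.

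Values in the resistant tumours are set beside those in untreated tumours for a few genes. The counts take no account of the number of sites, at a median of 952.5 in Kmt2c-hit and 275 in other resistant tumours. More hits in the Kmt2c-hit ones therefore do not by themselves show a link with Kmt2c. The p-values are of the difference of odds ratios, from the regression with the number of sites. Kdm6a was hit in 7 of 24 Kmt2c-hit and 0 of 27 other resistant tumours, against 6 of 24 and 5 of 70 untreated ones, and the difference of its ratios was not shown (unadjusted p = 0.271). Nf1 was hit in 15 Kmt2c-hit and 3 other resistant tumours, against 3 and 5 untreated ones (unadjusted p = 0.118). Ank3 was hit in 8 and 8 resistant tumours, against 16 and 18 untreated ones (unadjusted p = 0.00525). Csmd1 was hit in 8 and 4 resistant tumours, against 14 and 10 untreated ones (unadjusted p = 0.0303). Ncoa7 was hit in 6 and 3 resistant tumours, Tenm2 in 13 and 2, Pias1 in 7 and 0, Cdh12 in 5 and 0 and Sash1 in 11 and 3. None of these differences passed the adjustment over 620 genes.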

How the data were processed

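Genomic DNA of 94 untreated and 51 resistant mammary tumours was measured by transposon insertion mapping. Per the labels' protocols, 4 library pools were read as pairs of 100 bp. Coordinates are mm10, the build named in the submitters' processing notes. An aligner and site caller are not given in the sources used here. For 198107 sites the authors deposited a whole-number read count per library, with no normalisation visible in the values. A second deposited score per site and library (div) is not defined in the file headers and was used only in an alternative. The authors' table gave gene regions and, per region, the number and percent of untreated tumours with an insertion. Identifiers of 12384 of 13391 gene regions matched RefSeq, which gave the symbols and the Kmt2c start site (GRCm38.p6, the same build). The 8-base sequences come from the deposited site table.

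Sites of at least 10 reads were kept in the library with most reads at that position and strand, and a gene was hit when a kept site lay in its region. Genes hit in at least 5 tumours, other than those overlapping Kmt2c, were tested by Firth-penalised logistic regression with log10(number of sites + 1) as covariate, using numpy 2.4.6 and scipy 1.17.1. The 4 tumour measures were tested with 100000 permutations within 5 bins of the number of sites on residuals. The scripts were tested on simulated data. Genes were named when they were among the 10 smallest p in either direction, on a list of 17 often hit or known genes, or among the 3 smallest p of a gene list. Some genes named by this rule are not reported here. Members and lists were chosen with earlier results of these data known. Untreated libraries had 2950 to 938987 reads (median 48339), and binomial intervals cover counting of tumours only. Tumours of 1 mouse were treated as separate samples, and p-values assume that.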

Additional observations from a re-analysis of the deposited data

How the results depend on the processing

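With the number of sites taken into account, the count of genes past the adjustment was 0 in every alternative run in untreated tumours. These covered other read minimums, most-read sites only, other rules for shared positions and bins as strata. Further covariates, 1 title form and 23 fits that each left out a mouse (0 to 0) were also run. Without the number of sites the two-sided Fisher exact test called 43 genes in untreated tumours and 28 in resistant tumours. Of 354 values of the 20 genes with the smallest p under these alternatives, 353 kept their direction. The exception was Cdh12, at −0.052 (log2 odds ratio) with sites of div 2 or more. Those 20 genes were picked for their p in the same tumours, so a kept direction is not independent of the choice. Genes not tested or without a finite ratio under an alternative, and the fits that left out a mouse, are not among the 354. Kmt2c-hit tumours numbered 10 at 100 reads, 11 with the 300 most-read sites, 6 with the 100 most-read sites and 11 with div 2 or more. The chromosome 10 difference lost the call at 100 reads (−2.82 points), with the 300 or 100 most-read sites (−2.50 and −2.42), without the number of sites (−2.08), in TgTum tumours (−4.54) and in tgTum tumours (−0.30), and lay between −3.94 and −3.27 when a mouse was left out. The gene-region difference, never past the threshold, turned positive at 100 reads (0.13), with the 300 or 100 most-read sites (0.93 and 1.02), without the number of sites (3.80), in tgTum tumours (0.84) and without tumours of under 20 sites (1.02). The most-read site difference was −1.69 without the number of sites, and the TTAA difference −0.14 in TgTum tumours. The causes were not tested. The tgTum alternative rests on 5 Kmt2c-hit tumours. The exact test with mice as strata, which sets tumours of the same mouse against each other, called 0 genes, with 89 at unadjusted p under 0.05. It took no account of the number of sites.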
